A study of Mus musculus with 5 samples.

Results

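NF-kB is a family of transcription factors that sit in the cytoplasm, bound by inhibitor proteins, until a kinase complex marks those inhibitors for destruction. In lymphocytes, PMA drives the canonical arm: protein kinase C acts through the adaptors BCL10 and MALT1 to switch on the IKK complex of IKKα, IKKβ and NEMO. A slower, non-canonical arm runs from TNF family receptors through the kinase NIK and IKKα to processing of the NFKB2 precursor, which then pairs with RelB. Transcripts of 10 genes of these arms were examined: the subunit genes Rel, Rela, Relb and Nfkb2, the nuclear IkB family gene Bcl3, the kinase genes Chuk, Ikbkb and Map3k14, and the adaptor genes Malt1 and Bcl10. They were taken by symbol from probe sets annotated to exactly 1 gene, which gave 9 of 10 genes, each with 1 probe set, among 19938 genes in all. Chuk, the gene of IKKα, was not analysed here.

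The RNA came from lung natural helper cells, innate lymphocytes also named group 2 innate lymphoid cells, of C57Bl/6 mice that were naive and 6 to 8 weeks old. They had been sorted as lineage-negative, Sca-1+, c-Kit-/low, CD127+ and CD25+ cells. The unstimulated group was 3 arrays of cells lysed directly after the sort. The stimulated group was 2 arrays of cells held for 3 days with PMA, a phorbol ester (60 ng/ml), and ionomycin, a calcium ionophore (500 ng/ml). All stimulated cells were cultured and no unstimulated cells were, so time in culture and stimulation cannot be told apart. Whether the arrays stand for separate animals or cultures is not stated in the labels, and the p-values therefore reflect the scatter of these samples alone, part or all of which may be technical. In bulk RNA, fewer cells of a type and less RNA per cell cannot be told apart either.

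Values are log2 expression from RMA, and array medians ran from 5.63 to 5.66. All 13 measured markers of natural helper cells, Gata3, Il7r and Il2ra among them, had means over the 5 arrays above the upper quartile of all values (7.07). Of these 13, limma called 5 lower (Il17rb, Kit, Rora, Id2 and Il7r) and none higher, beside 0.963% and 0.737% of all genes. On both stimulated arrays 8 lay lower than on all unstimulated ones and 3 (Il13, Il5 and Il2ra) lay higher. Of all genes, 14.0% lay lower in this way and 18.6% higher. The median difference of the 13 markers was -0.77. In the stimulated group the means of Kit (6.98) and Il17rb (6.45) lay under that quartile. Of 54 markers of 8 other cell types, 18 were lower on both stimulated arrays than on all unstimulated ones and 3 were higher, and limma called none. The mean level of the 12 macrophage, monocyte and dendritic cell markers ran from 5.71 to 6.43 on unstimulated arrays and from 5.42 to 5.51 on stimulated arrays. For the 6 lung epithelial markers these ranges were 6.27 to 7.22 and 5.81 to 5.88, and for the 6 B cell markers 4.85 to 5.44 and 4.83 to 4.86. For the 7 T cell markers they were 6.79 to 7.72 and 7.03 to 7.26. For the 6 neutrophil and eosinophil markers they were 5.27 to 6.52 and 4.63 to 4.75. The 6 endothelial and fibroblast markers gave 6.32 to 7.21 and 5.89 to 6.08, and the 5 mast cell and basophil markers 4.71 to 4.90 and 4.03 to 4.13. In 5 of the 8 lists both stimulated means lay below all unstimulated means, while the T cell, B cell and NK cell ranges overlap. Differences of single markers were wider than those of list means, from -3.25 (Lyz2) to 1.43 (Cd28). Under the lower quartile of all values (4.49) lay 1 of the 6 B cell markers and none of the 12 macrophage, monocyte and dendritic cell markers. Unstimulated array 3 had the lowest mean of the unstimulated arrays in 7 of the 8 marker lists. It was also the lowest unstimulated array for 7 of the 9 NF-kB genes, as for 23.1% of all genes. The part of other cells, and of the lower cell type markers, in the differences given here was not tested.

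The 9 genes differed between the groups in unlike sizes and directions. Rel, Malt1, Ikbkb and Relb lay lower on both stimulated arrays than on every unstimulated array, with differences between group means of -1.02, -0.63, -0.49 and -0.29 on the log2 scale. Rela lay higher (0.27), although its difference was -0.061 when arrays were centred on reference genes. Nfkb2, Bcl3, Map3k14 and Bcl10 had groups that overlapped. No gene of the 9 passed the test (limma, Benjamini-Hochberg adjusted p under 0.05 over all 19938 genes), against 0.737% of all genes called higher and 0.963% called lower. At an unadjusted p under 0.05, 4 of the 9 were lower and none higher, where 19.9% of all genes passed in either direction. All 9 had means above the median of all values, and among the 10356 such genes 35.2% passed. Groups that did not overlap were found for 14.0% of all genes with the stimulated arrays lower and for 18.6% with them higher. The median difference over the 9 genes was -0.29, beside 0.00 over all genes, and the median absolute difference was 0.29 beside 0.10. All genes include dim genes and the 21.3% with a value repeated on at least 4 arrays. These medians and the shares without overlap were not taken over genes of like level.

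**Figure D1:**
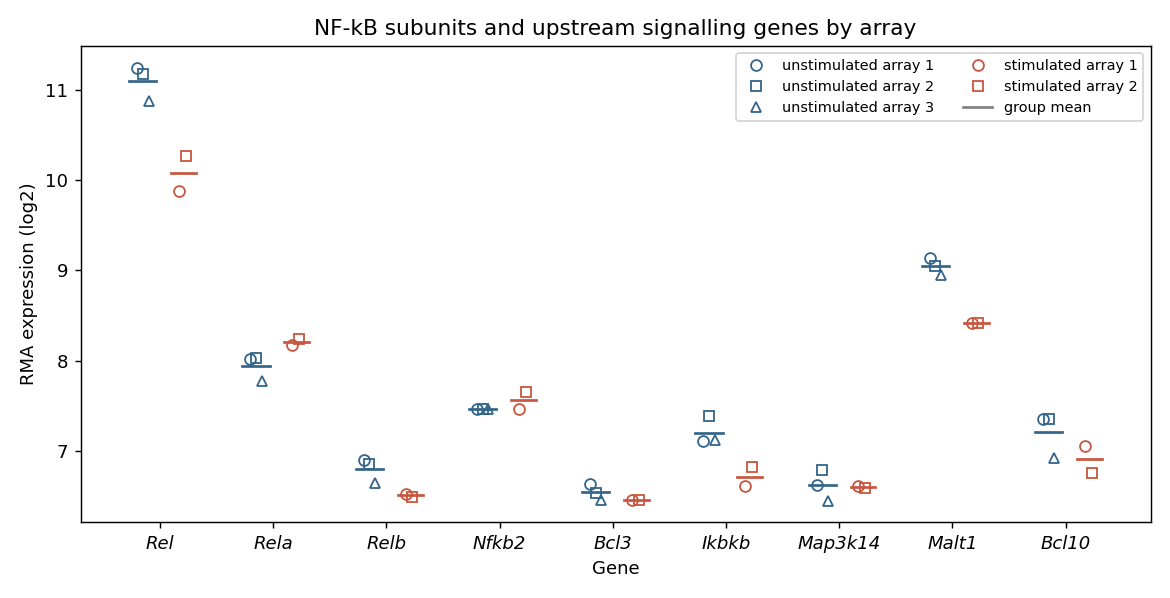
RMA expression (log2, vertical axis) of the 9 measured genes on each array, with unstimulated arrays in blue, stimulated arrays in red and a line at each group mean. The groups are apart for Rel, Rela, Relb, Ikbkb and Malt1 and overlap for the other 4 genes, and levels of different genes cannot be compared because they come from different probe sets.

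Among the subunits that carry their own transactivation domain, Rel had the widest difference. Rel codes for c-Rel, the subunit most tied to lymphocyte activation and cytokine genes. It read 11.2, 11.2 and 10.9 on unstimulated arrays 1 to 3 and 9.88 and 10.3 on stimulated arrays 1 and 2. All 3 unstimulated values lay above both stimulated ones, and the stimulated arrays differed from each other by more than the unstimulated ones did in SD (0.27 against 0.20). The means were 11.1 ± 0.20 (SD, n = 3) and 10.1 ± 0.27 (SD, n = 2), a level 2.03-fold lower after stimulation. The difference was -1.02 ± 0.19 SE with a 95% interval of -1.56 to -0.48, and limma's adjusted p was 0.0990. Over 15 other settings the difference ran from -1.35 to -0.83 and the adjusted p from 5.31e-10 to 0.282. Rel was called lower among genes above the median of all values (adjusted p = 0.0404), after quantile normalization (0.0476) and after centring on reference genes (5.31e-10). Of the genes tested in these fits, 6.91%, 3.66% and 14.5% were called lower. Centring on reference genes gave every gene the same SE (0.20), so the scatter of Rel itself did not set its adjusted p there. Of the 8 reference genes themselves, 6 lay higher on both stimulated arrays and none lower (median difference 0.25, none called), so this centring moves every difference down.

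Rela codes for p65, the main partner of p50 in the canonical dimer. Its values were 8.02, 8.02 and 7.77 on the unstimulated arrays and 8.17 and 8.24 on the stimulated arrays. Both stimulated arrays were above all unstimulated ones, and unstimulated array 3 was lowest, as it was for Rel. The difference was 0.27 ± 0.10 SE (95% interval -0.02 to 0.56, adjusted p = 0.283), or -0.061 after centring on reference genes, where the median over all genes was itself -0.33. Rela was called under none of the 15 other settings.

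Relb codes for RelB, the partner of p52 in the non-canonical arm. It stood at 6.89, 6.85 and 6.64 on the unstimulated arrays and at 6.52 and 6.49 on the stimulated arrays. The stimulated values were close together and below unstimulated array 3, the nearest, by a margin smaller than the unstimulated SD of 0.14. Its difference was -0.29 ± 0.09 SE (95% interval -0.56 to -0.02, adjusted p = 0.227). It was called lower only after centring on reference genes (adjusted p = 0.0153) among the 15 other settings.

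Nfkb2 codes for the p100 precursor of p52, and its deposited values carried little information on change. It was listed at 7.46753 on all 3 unstimulated arrays and on stimulated array 1, and at 7.66 on stimulated array 2. The whole difference of 0.09 ± 0.06 SE (95% interval -0.09 to 0.28, adjusted p = 0.475) therefore came from 1 array, and it was -0.23 after centring on reference genes. Without stimulated array 1, limma called it higher by 0.19 (adjusted p = 0.0312), a fit in which the unstimulated arrays share 1 value and the lone stimulated array has no spread of its own. Values repeated on at least 4 arrays were found for 21.3% of all genes. Bcl3, whose product is an IkB family protein that binds p50 and p52 in the nucleus, read 6.63, 6.53 and 6.45 on the unstimulated arrays. It was listed at 6.45270 on unstimulated array 3 and on both stimulated arrays. Its difference was -0.08 ± 0.06 SE (95% interval -0.26 to 0.09, adjusted p = 0.476). Nfkb1, the gene of p105 and p50, was not analysed here.

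**Figure D2:**
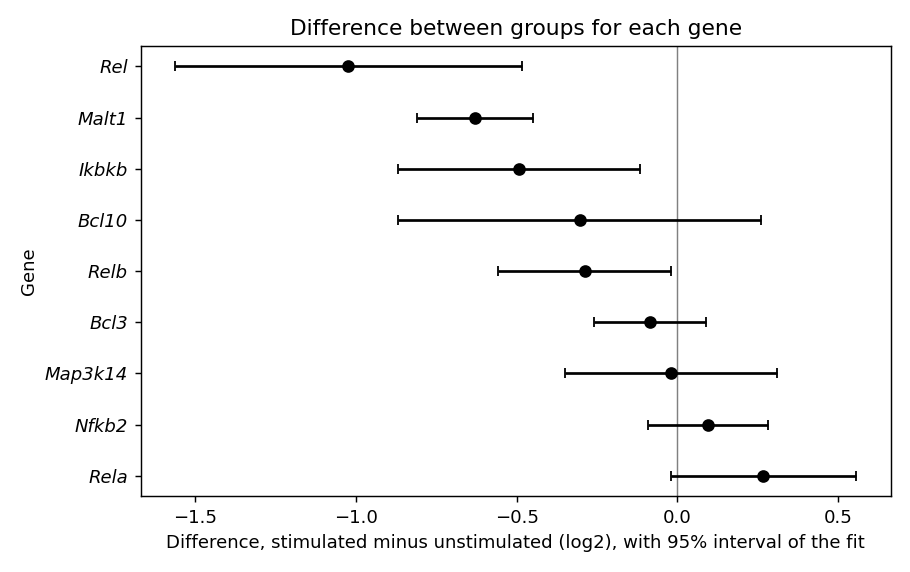
Difference between the group means of each gene (log2, stimulated minus unstimulated, horizontal axis) with the 95% interval of the limma fit, which is not adjusted for the number of genes tested. The intervals of Rel, Malt1, Ikbkb and Relb lie below 0 and those of the other 5 genes include it, and the sign of Rela, Nfkb2 and Map3k14 turned under another centring.

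Subunit genes of this family are known to be targets of NF-kB themselves, so the sequence before the start sites is shown for the gene with the widest difference (Rel), the only one that was higher on both stimulated arrays (Rela) and the one listed at the same value on 4 arrays (Nfkb2). RefSeq promoter windows (GRCm38.p6, 250 bases before and 50 after a start) were found for 7 of the 10 genes, 9 windows in all. The 10-letter NF-kB consensus motif was searched on both strands, and overlapping matches were counted as found. Each line gives the 120 bases before a start, 5′ to 3′ on the gene's strand, with the matches in capitals. For Nfkb2 the first of its 3 windows is shown.
Rel, chr11:23770970-23771089, minus strand: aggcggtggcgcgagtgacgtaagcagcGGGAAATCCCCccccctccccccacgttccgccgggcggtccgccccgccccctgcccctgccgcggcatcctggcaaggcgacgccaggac
Rela, chr19:5637421-5637540, plus strand: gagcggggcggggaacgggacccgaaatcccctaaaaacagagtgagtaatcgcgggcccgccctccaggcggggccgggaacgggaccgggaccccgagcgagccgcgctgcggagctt
Nfkb2, chr19:46304617-46304736, plus strand: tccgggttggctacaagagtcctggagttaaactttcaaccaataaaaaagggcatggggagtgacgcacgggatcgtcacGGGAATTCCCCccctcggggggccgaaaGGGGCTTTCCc

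The Rel window held a pair of overlapping matches, with the first at bases -92 to -83 from the start. The Nfkb2 window held an overlapping pair with its first match at -39 to -30, and another match at -11 to -2. The other windows of Nfkb2 overlap each other and held 2 and 1 matches, of which 1 in each is the same site at 46305705 to 46305714. The Rela window held none. Of the remaining genes, Bcl10 had 1 match at -241 to -232 and Bcl3 had 1 at bases 3 to 12 after the start, while the windows of Chuk and Map3k14 had none. In all, 4 of the 7 genes with a window held the motif, in 6 of 9 windows of which 3 belong to Nfkb2, and 8.46% of all 32851 windows hold it. A loose AP-1 motif, TGANTCA with any base at N, was searched in the same way. It was found in 1 of the 9 windows, the second of Nfkb2, where it reads TGAATCA, and in 7.81% of all windows. The GC content of the 9 windows was 51.7% or more, and neither motif was set against windows of like base composition. A match describes letters in the window and is not a measured binding site.

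Of the upstream kinases, Ikbkb had groups that lay apart and Map3k14 did not. Ikbkb codes for IKKβ, the kinase of the canonical arm that phosphorylates IkB proteins. Its values were 7.10, 7.39 and 7.11 on the unstimulated arrays and 6.60 and 6.81 on the stimulated arrays. All unstimulated values lay above both stimulated ones, and unstimulated array 2 was highest. The difference was -0.49 ± 0.13 SE (95% interval -0.87 to -0.12), 1.41-fold lower, with an adjusted p of 0.166. Without stimulated array 1 it was -0.39, and after centring on reference genes it was called lower (-0.82, adjusted p = 0.000513).

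Map3k14 codes for NIK, the kinase that starts the non-canonical arm. It read 6.62, 6.78 and 6.45 on the unstimulated arrays and 6.61 and 6.59 on the stimulated arrays. The stimulated values fell inside the unstimulated range. The difference was -0.02 ± 0.11 SE, and its 95% interval of -0.35 to 0.31 leaves room for a change of about that size in either direction (adjusted p = 0.979). Its sign turned after median centring (0.0024) and without unstimulated array 2 (0.064). NIK is known to be held low by degradation of the protein, which an RNA level does not show.

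The adaptor genes Malt1 and Bcl10 gave unlike precision. Malt1 codes for a scaffold and protease that cleaves brakes on NF-kB such as A20. It stood at 9.14, 9.05 and 8.95 on the unstimulated arrays and at 8.42 on both stimulated arrays. The gap between the groups was wider than the whole unstimulated range, and the stimulated arrays were almost equal (SD 0.002). The difference was -0.63 ± 0.06 SE (95% interval -0.81 to -0.45), 1.55-fold lower. With an adjusted p of 0.0508, Malt1 missed the threshold narrowly. It was called lower in 6 of 15 other settings, with adjusted p over all 15 from 2.89e-05 to 0.171. Those 6 were array weights, both filters on dim genes, median centring, centring on reference genes and quantile normalization. It was not called with any array left out, with differences of -0.68 to -0.58.

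Bcl10 codes for the adaptor that binds MALT1. Its values were 7.35, 7.35 and 6.92 on the unstimulated arrays and 7.05 and 6.76 on the stimulated arrays. Unstimulated array 3 lay between the stimulated arrays, so the groups overlapped. The difference was -0.30 ± 0.20 SE (95% interval -0.87 to 0.26, adjusted p = 0.475), beside SDs of 0.25 (unstimulated) and 0.21 (stimulated). Leaving out unstimulated array 3 gave -0.45, and leaving out stimulated array 2 gave -0.16. Bcl10 was called lower only after centring on reference genes (-0.63, adjusted p = 0.0124) among the 15 other settings.

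A log ratio of a pair of genes within an array does not move with the scaling of that array. The log2 ratio of Rel to Rela was 3.23, 3.15 and 3.10 on the unstimulated arrays and 1.71 and 2.03 on the stimulated arrays. The groups did not overlap, and the ratio was lower after stimulation by a difference of -1.29. The ratio of Relb to Rela was -1.13, -1.17 and -1.14 before and -1.65 and -1.75 after (difference -0.56). The ratio of Ikbkb to Ikbkg, the gene of NEMO, was 1.13, 1.32 and 1.04 before and 0.43 on both stimulated arrays (difference -0.73). For each of these 3 ratios an exact permutation test gave p = 0.1 (two-sided, 10 splits), the smallest value that 3 against 2 arrays allow, and 0.133 adjusted over 4 ratios. The ratio of Malt1 to Bcl10 was 1.78, 1.70 and 2.03 before and 1.37 and 1.66 after (difference -0.33, exact permutation p = 0.2), and its groups were apart by less than either SD (0.17 and 0.21). These 4 pairs were chosen after the values were seen. In the first 3 the first gene already lay lower on both stimulated arrays and the second higher. Those ratios were therefore bound to lie apart, and the permutation p-values and their adjustment support nothing.

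**Figure D3:**
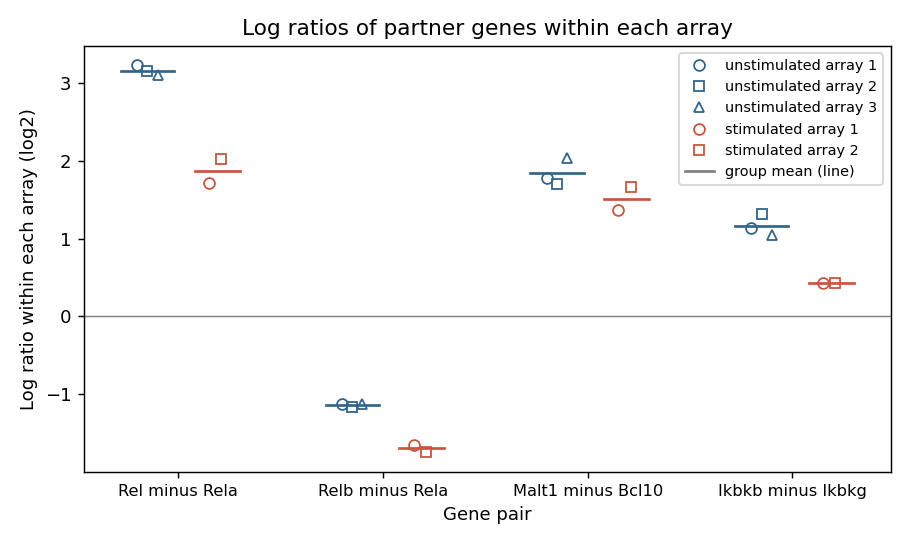
Log2 ratio of partner genes within each array (vertical axis), with unstimulated arrays in blue, stimulated arrays in red and a line at each group mean. The ratios of Rel to Rela, Relb to Rela and Ikbkb to Ikbkg were lower on both stimulated arrays, with differences between group means of -1.29, -0.56 and -0.73. The ratio of Malt1 to Bcl10 was also lower on both (difference -0.33), with a gap between the groups smaller than either SD.

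The rest of the pathway was read from 7 lists with 108 measured genes that are not among the 10. Of these, 7 were called higher and 8 lower (6.48% and 7.41%, beside 0.737% and 0.963% of all genes). The share over all genes includes dim genes. Among genes above the median of all values, 11 pathway genes were higher and 22 lower, beside 7.96% and 6.91% of the genes tested there. After centring on reference genes 8 were higher and 43 lower, and after median centring 9 and 17. Counts higher and lower were 1 and 0 without unstimulated array 1, 0 and 0 without array 2 and 2 and 2 without array 3. Leaving out stimulated array 1 gave 5 and 1, leaving out stimulated array 2 gave 4 and 5, and none was called with the replicate number as a block. The median difference of the 108 genes was -0.05. Both stimulated arrays lay above all unstimulated ones for 21 (19.4%, beside 18.6% of all genes) and below for 43 (39.8%, beside 14.0%). The lists were written with earlier results of these data known, so these shares describe them and support nothing. Of 7 NF-kB inhibitor genes, limma called 2 lower and none higher, with a list median of -0.74. These were Nfkbia, which codes for IkBα (-2.06 ± 0.19 SE, adjusted p = 0.0456), and Nfkbiz, which codes for the nuclear protein IkBζ (-0.74 ± 0.07, adjusted p = 0.0492). Nfkbid had the largest drop of the list (-2.41 ± 0.24) but was not called (adjusted p = 0.0506). Lower on both stimulated arrays than on all unstimulated ones were 4 of the 7, with none higher, beside 14.0% and 18.6% of all genes. Of 19 genes that restrain the pathway, Tnfaip3 (A20, -2.14 ± 0.09, adjusted p = 0.0229) and its partner gene Tnip1 (-0.65 ± 0.05, adjusted p = 0.0416) fell. In the same list Tnip3 (5.26 ± 0.10, adjusted p = 0.0158) and the deubiquitinase gene Otud7b (0.42 ± 0.04, adjusted p = 0.0440) rose, and the median was 0.03.

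Around and upstream of the IKK complex, 3 lists had 16.7%, 7.69% and 11.8% of their measured genes called, beside the shares of 0.737% and 0.963% of all genes called higher and lower. Of 12 genes of protein kinase C, CARD proteins and their partners, Prkch (-1.03 ± 0.05 SE, adjusted p = 0.0262) and Prkce (-0.35 ± 0.02, adjusted p = 0.0352) fell and none rose, with a median of -0.04. Prkcq, which codes for the isoform that acts upstream of NF-kB in T cells, read 8.40 ± 0.06 (SD, n = 3) and 8.50 ± 0.09 (SD, n = 2) and was not called (0.10 ± 0.06 SE, adjusted p = 0.472). Of 13 other kinase complex genes, only Tank, which codes for an adaptor of TBK1, was called and rose (0.93 ± 0.04, adjusted p = 0.0229), with a median of -0.10. Ikbkg differed by 0.24 ± 0.08 (adjusted p = 0.238). Of 17 TRAF, IAP and linear ubiquitin genes, Ube2n, which codes for the enzyme that builds K63-linked ubiquitin chains, rose (0.44 ± 0.03, adjusted p = 0.0363) and Birc3, which codes for cIAP2, fell (-0.65 ± 0.04, adjusted p = 0.0323), with a median of 0.01. Traf2, which with TRAF3 and the cIAPs targets NIK for degradation, differed by 0.02 ± 0.02 (adjusted p = 0.601), and Traf3 was not analysed here.

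Downstream, known NF-kB targets went both ways. Of 33 measured, 16 lay lower on both stimulated arrays than on all unstimulated ones and 8 higher, beside 14.0% and 18.6% of all genes. By limma 4 rose and 5 fell, beside 0.737% and 0.963% of all genes, with a list median of -0.21. The risers were Tnip3, Irf4, a transcription factor gene of activated lymphocytes (3.25 ± 0.17 SE, adjusted p = 0.0271), Tnfrsf9, which codes for 4-1BB (2.88 ± 0.07, adjusted p = 0.0166), and the chemokine gene Ccl4 (1.10 ± 0.08, adjusted p = 0.0363). The AP-1 gene Junb (-1.95 ± 0.13, adjusted p = 0.0352) fell with Tnfaip3, Nfkbia, Birc3 and Tnip1. Junb belongs to the 14 measured immediate early genes too. Of those 14, 7 fell and none rose, and the median difference was -2.06. On both stimulated arrays 12 lay lower than on all unstimulated ones and 1, Egr2, lay higher (difference 1.24). Of all genes, 14.0% lay lower in this way and 18.6% higher. The part of the immediate early genes in the other differences was not tested. Of 15 TNF family receptor genes that signal to NF-kB, Tnfrsf9 alone was called, and the list median was -0.04. Tnfrsf4, which codes for OX40, differed by 1.53 ± 0.17 (adjusted p = 0.0566).

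**Figure D4:**
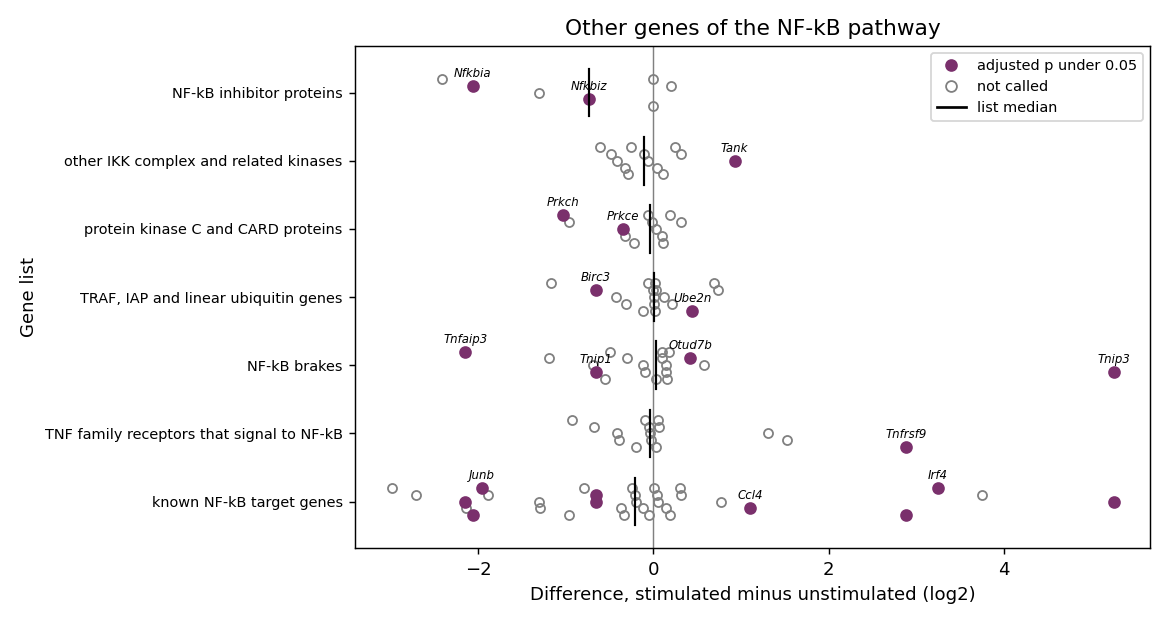
Difference between groups (log2, stimulated minus unstimulated, horizontal axis) for each measured gene of 7 NF-kB pathway lists, with called genes filled and named once, other genes open and a bar at each list median. Medians lie between -0.74 (inhibitor genes) and 0.03 (genes that restrain the pathway), and called genes stand on both sides of 0.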

How the data were processed

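The authors deposited log2 values of expression, made with RMA, a robust multi-array average, as named in the submitters' processing notes. The RMA version is not given in the sources used here. RNA (6 micrograms) was labelled with biotin for Affymetrix arrays, per the labels' protocols. Of 35556 probe sets, 21789 had 1 symbol in the platform annotation, which gave 19938 genes. Where a gene had several, the probe set with the highest mean was used.

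The fit was limma 3.58.1 (R 4.3.3) with lmFit and eBayes over all genes, with Benjamini-Hochberg adjustment. The number of arrays limits the precision, and 62.0% of genes repeat a value on at least 2 arrays. Sample titles gave groups and replicate numbers. The members and lists were chosen with earlier results of these data known. Named genes are the measured members, up to 4 called genes per list with the largest difference, and direct partners of the members. Nfkbid, Prkcq, Tnfrsf4, Ccl4, Junb, Egr2, Il17rb, Kit, Rora, Id2 and other marker genes were named after their values were seen. The test was tried on simulated data. Alternatives were other eBayes settings, array weights, filters on dim genes, means of probe sets, 3 normalizations (1 of them centring on 8 reference genes), a replicate block and single arrays left out. Plots used matplotlib 3.10.9.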

Additional observations from a re-analysis of the deposited data

How the results depend on the processing

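The main analysis called no member. Limma called 1 lower with array weights (1.16%), 1 among genes above the lower quartile (2.21%) and 1 after median centring (2.64%). It called 2 lower among genes above the median (6.91%), 2 after quantile normalization (3.66%) and 5 after centring on reference genes (14.5%). Each percentage is the share of all genes tested that the same setting called lower. The members called higher numbered 0 to 1 with 1 array left out, the 1 being Nfkb2. The median difference of the 9 genes was -0.62 after centring on reference genes, which moved the median of all genes to -0.33 and gave every gene the same SE, and ran from -0.37 to -0.16 with 1 array left out. Signs turned for Rela (-0.061) and Nfkb2 (-0.23) after centring on reference genes, and for Map3k14 after median centring (0.0024) and without unstimulated array 2 (0.064, in a range of -0.10 to 0.064 with 1 array left out).

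Of all genes, 0.737% were called higher and 0.963% lower, and of the 108 pathway genes 7 and 8. With robust variances these were 0.226% and 0.331%, and 4 and 3, and with array weights 0.883% and 1.16%, and 7 and 9. Among genes above the lower quartile they were 2.00% and 2.21%, and 8 and 13, and among genes above the median 7.96% and 6.91%, and 11 and 22. Median centring gave 3.31% and 2.64%, and 9 and 17. Quantile normalization gave 4.14% and 3.66%, and 11 and 19. Centring on reference genes gave 3.37% and 14.5%, and 8 and 43. With 1 array left out the ranges were 0 to 1.81% and 0 to 2.07%, and 0 to 5 and 0 to 5. The lower ends came without unstimulated array 2, where limma called no gene (3024 at an unadjusted p under 0.05). The cause of these shifts was not tested.

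The replicate block called 0 genes (0% of all genes, 3568 at an unadjusted p under 0.05), with a member median of -0.37. Deviations of same-numbered arrays correlated at -0.14 (number 1) and -0.06 (number 2) across genes, which are not independent replicates. With 2 stimulated arrays these deviations mirror each other, so they are not separate checks, and whether the numbers pair the arrays is unknown. A lone stimulated array is assumed to vary like the others. There were no detection calls, so dim levels cannot be set apart from background.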
